A study of Mus musculus with 37 samples.

Results

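Of 22367 open reading frames (ORFs) that the authors scored as translated in mouse dendritic cells, 1250 lay wholly inside the genomic span of the longest ORF of their gene and shared no in-frame codon with it. They were chosen by position and frame. ORFs were grouped into 10418 families by the gene or transcript in their name, chromosome and strand, and the ORF with most codons in a family was called the main ORF, with ties settled by the authors' score and then by name. The out-of-frame ORFs made up 5.59% of the list (95% exact interval 5.29 to 5.90) and fell in 898 families (8.62%, interval 8.09 to 9.18). A single one was listed in 677 of these families, 2 in 147, and 3 or more in 74. Together the 1250 ORFs ended at 1104 distinct stop codons, 129 of which served more than 1 of them, and 32 began where another of them began, so they are not independent of each other.

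The data were ribosome footprints, the RNA fragments that ribosomes shield from nuclease, from bone marrow-derived dendritic cells of C57BL/6J mice aged 6 to 8 weeks. The cells were stimulated with lipopolysaccharide (LPS, 100 ng/mL), a bacterial product sensed by Toll-like receptors, or received a mock treatment, or were naive. Cycloheximide, which stops elongating ribosomes (100 ug/mL for 1 min), was used in 16 LPS libraries and 8 mock libraries, both at 8 time points from 0.5 to 12 h, and in 2 naive libraries. No drug was given before lysis in 8 LPS libraries at the same times and 1 naive library, and harringtonine (1 ug/mL, 5 min) and lactimidomycin (50 ug/mL, 30 min), which stall initiating ribosomes, had 1 library each, mixed from several LPS times. The lysis buffer held cycloheximide for all 37 libraries. The labels name a single ORF list for all of them, so every value below describes the libraries together. No condition could be set against another, how deeply each library was sequenced is unknown here, and intervals cover counting error only. Marker genes of dendritic cells had a listed ORF in 10 of 11 cases (all except Flt3), those of macrophages and monocytes in 6 of 7 and those of neutrophils in 8 of 8. The part of other cells of the marrow culture in the ORFs was not tested.

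As background, a ribosome that scans from the cap can pass a start codon and begin at a later one, which is called leaky scanning. Where the later start is in another frame, the ribosome never enters the main reading frame and translates an unrelated and usually short peptide inside the coding region. Such internal ORFs can lower the output of the main protein, can give peptides for display on MHC class I molecules, and in a few genes encode a protein of their own. An ORF placed inside the span of another can also belong to a different transcript, such as a gene within an intron, and then shares no base with the main coding sequence.

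Most of the ORFs overlapped the main coding sequence itself. Of the 1250, 1139 (91.1%, interval 89.4 to 92.6) shared coding bases with the main ORF and 1089 lay wholly within them. The other 111 (8.88%) had no coding base in any exon of the transcript listed for the main ORF, so they lay in its introns as listed. The transcript listed for the ORF held both the main start and the main stop for 937 of the 1139 (82.3%), against 27 of the 111 (24.3%). Taking all 1250, the coding part lay in 1 exon for 796 (63.7%), and the start lay in exon 1 of the listed transcript for 300, in exon 2 for 397, in exon 3 for 222 and in a later exon for 331. Of the 1053 whose transcript held the main start, 400 (38.0%) began in the same exon as it.

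The starts crowded near the main start. For 1097 of the ORFs the first base was a coding base of the main ORF, and the median distance after the main start was 151 coding bases (quartiles 67 and 292, range 2 to 9482). When the main ORF was cut into 10 equal parts, the first part held 514 of these starts (46.9%, interval 43.9 to 49.9), the second 227 (20.7%), and the last 5 together 139 (12.7%). Counted in bases, 117 starts (10.7%) lay within 30, 542 (49.4%) within 150 and 832 (75.8%) within 300. For 657 (59.9%) the list held no other start between the main start and that of the ORF. The coding distance equalled the distance along the ORF's own transcript in 864 of 999 cases (86.5%), so most were as far from the main start on their own transcript as in the main coding sequence.

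**Figure D1:**
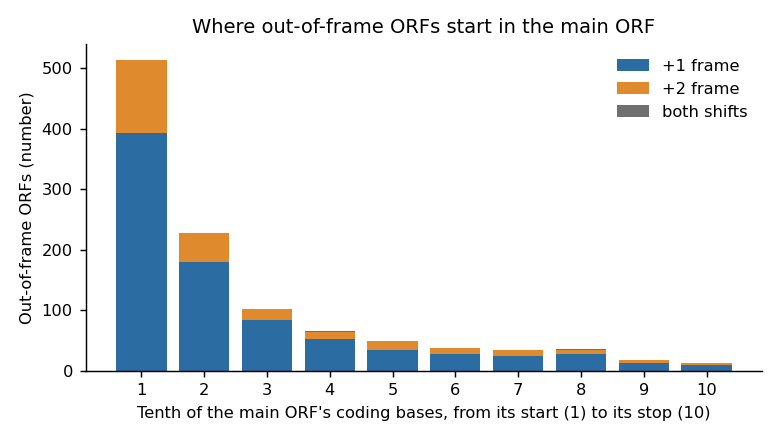
Number of out-of-frame ORFs (vertical axis) by which of 10 equal parts of the main ORF they start in (horizontal axis, from its start to its stop), coloured by frame. The first part holds 514 of 1097 starts and the last holds 13, and +1 ORFs outnumber +2 ORFs in each of the 10.

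The plot of starts along the main ORF shows a fall that was steepest at the front. The counts in the 10 parts were, in order, 514, 227, 102, 65, 50, 38, 34, 36, 18 and 13. The ORFs that began latest were the shortest and had the lowest scores. Those within 30 bases of the main start had a median of 20 codons and a median score of 728, those from 150 to under 300 bases had 23 codons and 676.5, and those from 600 bases on had 9.5 codons and 632.5. The score is the authors' own, a whole number from 500 to 991 in the list, and is used only to rank ORFs within it.

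The 2 possible shifted frames were not used equally. A +1 ORF has codons that begin 1 base after those of the main ORF, and a +2 ORF has codons that begin 2 bases after them. Of the 1139 overlapping ORFs, 860 were in the +1 frame, 275 in the +2 frame and 4 in both because of splicing. The +1 share of those in 1 frame was 75.8% (interval 73.2 to 78.2). ORFs that begin upstream and run over the main start were split nearly evenly, 354 to 320 (52.5%, interval 48.7 to 56.3), while the 35 that run over the main stop were split 26 to 9 (74.3%, interval 56.7 to 87.5). With 1 ORF per stop codon the split was 744 to 257 (74.3%). The base composition behind each frame was not analysed here, since no genome sequence of the build was used.

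**Figure D2:**
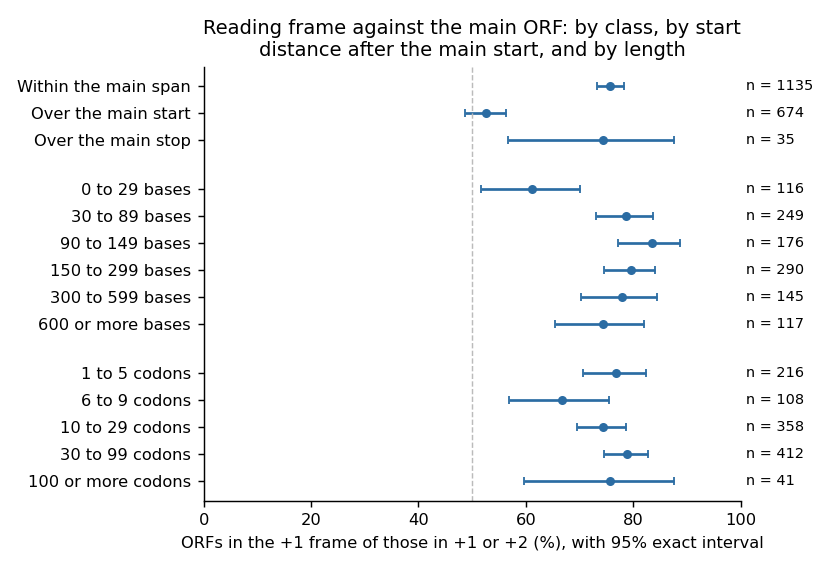
Share of ORFs in the +1 frame (horizontal axis, %) for 3 classes of out-of-frame ORF and, within the main span, by distance of the start after the main start and by length. Points are shares, bars are 95% exact intervals, n is the number of ORFs, and the dashed line marks an even split. Within the main span every share lies above that line, the lowest being 61.2% for starts within 30 bases.

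The excess of +1 ORFs held along the coding region, with its lowest value beside the main start. From 0 to 29 coding bases after the main start, 71 ORFs were +1 and 45 were +2 (61.2%, interval 51.7 to 70.1). From 90 to under 150 bases the counts were 147 and 29 (83.5%, interval 77.2 to 88.7), and the other 4 ranges of distance lay between 74.4% and 79.7%. By length the +1 share lay between 66.7% (6 to 9 codons) and 78.9% (30 to under 100 codons). By score it lay between 71.4% (900 or more) and 80.5% (800 to under 900). The frames had like lengths and scores, with medians of 23 codons and 684 for +1 and 20 codons and 670 for +2.

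The out-of-frame ORFs were short, with a median of 21 codons (quartiles 8 and 42.75, range 1 to 643). There were 229 of 1 to 5 codons (18.3%), 127 of 6 to 9, 404 of 10 to 29, 437 of 30 to under 100 (35.0%) and 53 of 100 or more (4.24%). The shortest, of 1 or 2 codons, numbered 75. Main ORFs had a median of 435 codons and are the longest of their family by the rule, so length against them is a description. Upstream ORFs had a median of 16 codons, those over the main start 37.5 and downstream ORFs 35.5.

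**Figure D3:**
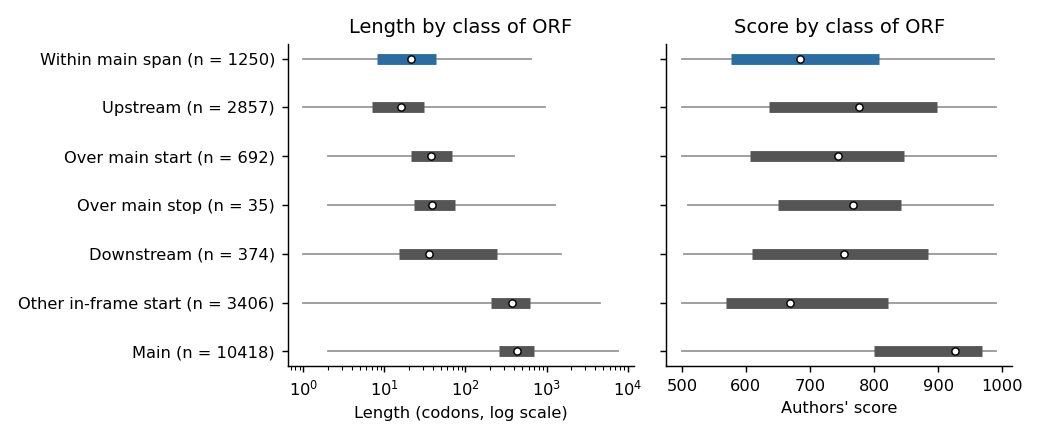
Length in codons (left, log scale) and authors' score (right) of out-of-frame ORFs within the main span, in blue, and of 6 other classes, in grey. Points are medians, thick bars run between the quartiles and thin lines from the lowest to the highest value. The out-of-frame ORFs have a median score of 684, below upstream ORFs at 776 and main ORFs at 926.

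Scores of the out-of-frame ORFs lay toward the low end of the list. Their median was 684 (quartiles 576 and 808), close to the 669 of other in-frame starts of the main stop and below the 776 of upstream ORFs, the 743 of ORFs over the main start and the 926 of main ORFs, as the plot of scores by class shows. A score of 900 or more was given to 146 of them (11.7%, interval 9.95 to 13.6). Set against the main ORF of their own family, 933 scored lower, 3 equal and 314 (25.1%, interval 22.7 to 27.6) higher. The median difference from the main ORF was -161.5, with quartiles of -303 and 1. Where the out-of-frame ORF scored higher, the main ORF had a median score of 666.5, and this selection by itself favours low main scores.

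**Figure D4:**
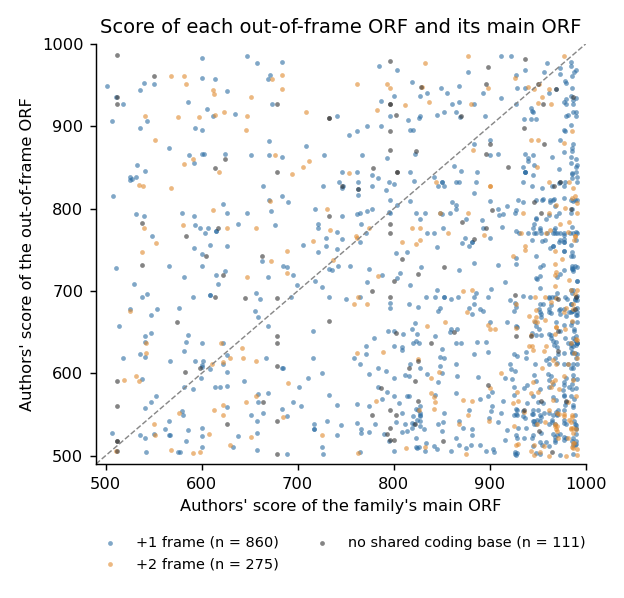
Authors' score of each out-of-frame ORF (vertical axis) against that of its main ORF (horizontal axis), coloured by frame. The dashed line marks equal scores, and 314 of the 1250 ORFs score above their main ORF, mostly where the main ORF scores under 900. The 4 ORFs with both shifts are not drawn.

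The longest ORF of a family is not always the one the authors scored highest, and the placement of many out-of-frame ORFs rests on that choice. In families holding 571 of the 1250, another ORF scored higher than the longest one. Placed against the highest-scoring ORF, 773 of the 1250 still lay within its span, 199 lay downstream of it, 58 upstream and 26 over its start, and 155 were themselves the highest-scoring ORF. Placed against the highest-scoring in-frame start of the main stop, 1144 stayed within the span, 75 became upstream ORFs and 29 became ORFs over the start.

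Families with an out-of-frame ORF also held more ORFs of other classes. An upstream ORF was listed in 25.2% of them (interval 22.4 to 28.1) and in 15.5% of the other 9520 families. An ORF over the main start was listed in 15.1% against 4.37%, another in-frame start of the main stop in 33.3% against 22.0%, and a downstream ORF in 3.23% against 1.79%. Their main ORFs were longer, with a median of 479 against 430 codons, and scored lower, with a median of 899.5 against 927. The share of families with an out-of-frame ORF was 6.64% in the shortest of 5 about equal groups of main ORFs and 9.84% in the longest. In 5 groups by main score it was 11.1% in the lowest, 6.95% in the next to highest and 8.47% in the highest. Expression was not in the list, and its part in these differences was not tested.

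Inner in-frame starts gave no single order. In families that also held another in-frame start of the main stop inside the main ORF, 350 out-of-frame ORFs could be ordered against those starts: 122 began before all of them, 190 after all and 38 among them. Only 64 of the 1250 read in frame with a listed ORF of another class. Of these, 45 did so with an ORF over the main start, 13 with an in-frame isoform and 7 with another in-frame start of the main stop, and these groups can overlap. For 1186 (94.9%) no listed ORF of another class shared their codons in frame.

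Some families held a row of short ORFs in shifted frames. Cd33, a sialic acid-binding receptor of myeloid cells (mm9 coordinates here and below, 7: 50784232 to 50788461, minus strand), had 5 beside a 333-codon main ORF that scored 973. A 46-codon ORF in the +2 frame began 2 bases after the main start and scored 782. In the +1 frame, ORFs of 14, 13, 27 and 8 codons began 109, 196, 289 and 613 coding bases after it and scored 884, 963, 971 and 833. All 5 lay on a transcript with the main start and stop. Rhoq, a small GTPase with a listed main ORF of 250 codons (17: 87362811 to 87396400, plus strand), had 6, all in the +1 frame. The first, of 23 codons, began 4 bases after the main start and scored 959 against 600 for the main ORF, and it read in frame with a listed ORF over the main start. Ube2f, a NEDD8-conjugating enzyme with a listed main ORF of 193 codons, had 5 of 3 to 26 codons, all +1, that scored 505 to 795. Whether the listed main starts of Rhoq and Ube2f are the known starts of these proteins was not checked.

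**Figure D5:**
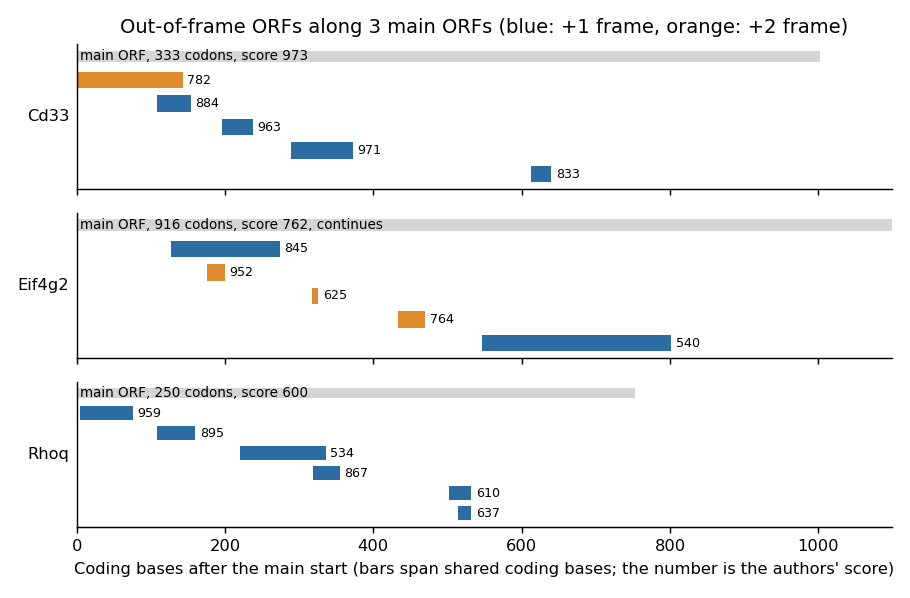
Position of out-of-frame ORFs (coloured bars, +1 in blue and +2 in orange) in coding bases after the main start (horizontal axis) of Cd33, Eif4g2 and Rhoq, with the main ORF in grey. The number beside a bar is the authors' score. All 6 bars of Rhoq are +1, and in Eif4g2 the highest score, 952, is that of a 7-codon ORF.

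Eif4g2 (7: 118216206 to 118225091, minus strand) encodes a relative of the scaffold eIF4G whose own translation is known to begin at a codon other than AUG. Its 916-codon main ORF scored 762, and 5 out-of-frame ORFs lay on transcripts with its start and stop. At 127 coding bases after the main start a 48-codon +1 ORF scored 845, and at 176 bases a 7-codon +2 ORF scored 952. These were followed by a 2-codon ORF at 317 bases (score 625), an 11-codon ORF at 434 bases (764) and an 84-codon ORF at 547 bases (540). The 84-codon ORF ended at the same stop codon as a 266-codon isoform that begins at the main start and scored 756. Of the 5, 3 scored above the main ORF.

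The starts nearest to the main start lay 2 bases after it, in the +2 frame, in Cd33, in Col24a1, a collagen gene (57 codons, score 761), and in Fmnl2, an actin-regulating formin (50 codons, score 510). At 4 bases, in the +1 frame, were the ORFs of Rhoq, of Arhgap23, a GTPase-activating protein (72 codons, score 912), of Chd1, a chromatin remodeller (236 codons, score 649), of Mkrn1, a ubiquitin ligase (22 codons, score 607), and of Tcp11l1 (8 codons, score 985). Another 2 at that distance lay on assembled transcripts without a gene name. Whether these starts are AUG codons was not analysed here.

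The highest scores went to ORFs of very different lengths. A 2-codon ORF 11 bases into Tsc22d1, a leucine zipper regulator, scored 986 beside a main ORF that scored 977. A 5-codon ORF of Mbnl1, a splicing regulator, and a 23-codon ORF of Aftph both scored 985, the latter 2116 coding bases after its main start. Tacc1, a spindle-associated protein, had a 4-codon ORF that scored 978 and began 1450 coding bases after the main start. A 20-codon +2 ORF that scored 986 lay in a family that carries the name of a microRNA, Mir23b, and whose main ORF had 161 codons. The largest excess over a main ORF of 100 codons or more with shared coding bases was that of Znrf2, a ubiquitin ligase, where a 39-codon ORF scored 949 and the main ORF 502. Next came 1600012H06Rik (6 codons, 936 against 511), the Fc receptor-like gene Fcrlb (60 codons, 953 against 540), Pphln1 (25 codons, 927 against 518), AI987944 (3 codons, 944 against 536) and the histone methyltransferase Setd1b (54 codons, 951 against 551). Another ORF of the family scored higher still in 1600012H06Rik (185 codons, 939) and Pphln1 (319 codons, 952). The named out-of-frame ORF lay upstream of that ORF in 1600012H06Rik and within its span in Pphln1. In Znrf2, Fcrlb, AI987944 and Setd1b the named out-of-frame ORF was the highest-scoring of its family.

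Among ORFs of 100 codons or more, 41 of 53 shared coding bases with the main ORF. These were singled out after their values were seen. The longest were a 276-codon ORF in AI987944 (score 898 against 536 for the 403-codon main ORF), the 236-codon ORF of Chd1, a 219-codon ORF in Asxl2, a chromatin regulator (score 550), and a 201-codon ORF in Cr1l, a complement regulator. Nr1h2, the nuclear receptor LXR beta, had one of 187 codons that began 43 bases after the main start and scored 758, and Pkd1, the polycystin gene, had one of 187 codons that scored 560.

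The other 12, with no shared base, were of another kind. The Gbp4 family, named for an interferon-induced guanylate-binding protein, held 8 ORFs of 50 to 643 codons at 4 stops, among them one of 611 codons that scored 987 (5: 105702121 to 105720039) and one of 631 codons that scored 936 (5: 105547297 to 105566040). Its 647-codon main ORF scored 512 and spanned 5: 105509074 to 105775495, where guanylate-binding protein genes are known to be clustered. In the family named Pelo, for a ribosome rescue factor, a 385-codon ORF that scored 898 (13: 115878738 to 115880127) lay inside a main ORF of 1179 codons, and the naming table has Pelo overlapping Itga1, an integrin gene. In the family named Glb1, for a lysosomal galactosidase, a 447-codon ORF that scored 878 (9: 114313753 to 114315096) lay inside a main ORF of 647 codons, and the naming table has Tmppe overlapping it. Oas1a, an antiviral oligoadenylate synthetase, had one of 234 codons that scored 693, and the Gp49a family, listed as Lilr4b in the naming table, had 303 and 208 codons from a common start, both scoring 910. The families named Gbp4, Gp49a, Pelo, Glb1, Mir23b and Cd68 may join neighbouring or nested genes. An ORF inside the main span then need not belong to the gene of the main ORF. This was not checked, since no gene coordinates of the build were used.

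The largest counts in a family came with transcripts that lack the main start. Mid1, a microtubule-associated ubiquitin ligase on the X chromosome, had 12 ORFs at 11 stops, 10 of them without shared bases, and only 1 on a transcript with the main start and stop. Its 68-codon ORF scored 979 against 796 for the main ORF. Runx1, a transcription factor of blood cells that is known to use a distal and a proximal promoter, had 8 ORFs of 3 to 55 codons, none with a shared base and none on a transcript with the main start. Against the highest-scoring ORF of the family, with 451 codons and a score of 950 in place of the 465-codon main ORF at 679, all 8 became upstream ORFs. Mdfic had 7, of 7 to 90 codons, and 4 of them shared only 7 to 10 bases with the main ORF, in the +2 frame.

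Genes of the LPS response are taken next, from receptor to target, by lists of genes that were chosen with earlier results of these data known. Over all 10182 named genes, 881 (8.65%) had an out-of-frame ORF. In the Toll-like receptor list 6 of 30 listed genes had one (20%, interval 7.71 to 38.6) and in the NF-kB list 6 of 27 (22.2%, interval 8.62 to 42.3). Both intervals include the share over all named genes. Tlr4, the LPS receptor, had a 14-codon +1 ORF 22 bases after the main start (4: 66488825 to 66488869, exon 1, plus strand). This ORF scored 946 beside 937 for the 856-codon main ORF. A 68-codon +2 ORF of Tlr4 began 350 bases after the main start and scored 750. Whether the listed main start is the known start of the receptor was not checked. Tlr2, the lipopeptide receptor, had 9 codons (score 602) and Tlr7, the single-stranded RNA sensor, had 21 (score 533). Downstream of the receptors, Tab2, an adaptor of the TAK1 kinase, had ORFs of 50 and 11 codons that scored 878 and 693. Irf5, a transcription factor, had 103 codons (score 598), and Irak3, which restrains the pathway, had 8 (score 693).

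In the NF-kB list the ORF with the highest score lay in Bcl3, an atypical IkB protein. It had 115 codons in the +2 frame, began 50 bases after the main start (7: 20405435 to 20408018, exon 1, minus strand) and scored 939, while the 462-codon main ORF scored 613. A 9-codon ORF of Bcl3 that scored 555 ended at the same stop as the 115-codon one. Ikbke, an IkB kinase relative, had ORFs of 23 and 24 codons from 1 start that scored 910 and 511. The first shared only 5 bases with the main ORF, which scored 826. Against the highest-scoring ORF of the family (710 codons, score 944), the first lay upstream and the second ran over its start. Birc3, a ubiquitin ligase of the TNF receptor complex, had 47 codons (score 865 against 728), and Traf2, an adaptor of the same complex, had 8 (score 853 against 991). The inhibitors Nfkbid and Nfkbie had their highest scores at 762 (54 codons) and 672 (57 codons).

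Target genes of LPS come next. Of 30 cytokine and chemokine genes, 4 had one (13.3%, interval 3.76 to 30.7, which includes the share over all named genes). The growth factor Csf1 had 25 codons in the +2 frame (score 762), the chemokine Ccl5 had 64 codons 76 bases after its start (score 624, beside 991 for its 91-codon main ORF), Il6 had 4 codons (score 569) and Cxcl16 had 34 (score 551). Of 31 interferon-stimulated genes, 3 had one (9.68%, interval 2.04 to 25.8). The antiviral GTPase Mx1 had ORFs of 14, 26 and 9 codons, all +1, that scored 912, 788 and 536 beside 828 for the main ORF. They began 31 to 391 coding bases after the main start, but 2107 to 2467 bases after it on their own transcripts. All lay downstream of the family's highest-scoring ORF (3 codons, score 983). Samhd1, a nucleotide hydrolase that restricts viruses, had 39 codons (score 658 against 514). The highest-scoring ORF of the Samhd1 family, of 620 codons, scored 897, and the 39-codon ORF lay within its span too.

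Of 29 dendritic cell and antigen presentation genes, 3 had one (10.3%, interval 2.19 to 27.4). Batf3, a transcription factor needed for cross-presenting dendritic cells, had 49 codons in the +1 frame, 37 bases after the start of its 103-codon main ORF (1: 192924620 to 192932387, plus strand), and scored 912 against 796. Cd274, the checkpoint ligand PD-L1, had 12 codons (score 839 against 991), and Cd80, a costimulatory ligand, had 26 (score 726 against 736). The highest-scoring ORF of the Cd80 family, of 314 codons, scored 986. Among macrophage and monocyte markers 2 of 13 had one (15.4%, interval 1.92 to 45.4), Cd68 (20 codons, score 671) and the Fc receptor gene Fcgr1 (14 codons, score 573). The one in the Cd68 family began in exon 23 of a 31-exon transcript, inside a main ORF of 406 codons. Whether that main ORF is that of Cd68 was not checked, so this count may include an ORF of another gene. None of 16 neutrophil markers had one (upper limit 20.6%), nor did any of 9 listed markers of B, T and mast cells and fibroblasts (upper limit 33.6%). The interval of every list in this paragraph includes the share over all named genes, so the lists do not show a difference between cell types.

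In genes of signalling, translation and splicing the shares ran from 3.90% to 16.2%. Of 36 kinases of the MAPK and PI3K pathways 4 had one (11.1%, interval 3.11 to 26.1), among them Pik3cb (56 codons, score 819), Akt2 (20, 795) and Map2k2 (37, 576). Of 48 translation factors 4 had one (8.33%, interval 2.32 to 20.0). Besides Eif4g2 these were Eif4e2, a cap-binding protein, with 97 codons (score 927 against 987), the cap-binding Eif4e with 12 codons (score 762), and the ribosome recycling factor Abce1 with 39 (score 549). Of 77 ribosomal protein genes 3 had one (3.90%, interval from 0.811 to a bound above the share over all named genes), among them Rpl19 with 2 codons (score 690) and Rps24 with 3 (score 637). Of 37 SR and hnRNP splicing factors 6 had one (16.2%, interval 6.19 to 32.0), among them Hnrnpk (3 codons, score 853), Srsf9 (13, 842), Ptbp3 (35, 772) and Srsf3, whose 11-codon ORF began 7 bases after the main start (score 770). Of 35 myeloid and immediate early transcription factors 3 had one (8.57%, interval 1.80 to 23.1): besides Runx1, Jund (5 codons, score 647) and Klf6 (27 codons, score 637). The Jund main ORF scored 586, and the 5-codon ORF lay upstream of the family's highest-scoring ORF (293 codons, score 945). The interval of every list in this paragraph includes the share over all named genes.

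Last are genes known for an overlapping or shifted reading frame. Of 22 such genes with a listed ORF, 1 had one (4.55%, interval 0.115 to 22.8, which includes the share over all named genes). This was Slc35a4, known in human for a microprotein encoded upstream of its transporter. Its 21-codon ORF (score 760) lay inside a main ORF of 103 codons (score 977), the longest listed in the family. Whether this main ORF encodes the transporter or the microprotein was not checked, since no sequence was used. Slc35a4 also was the only one of 26 stress response genes with such an ORF (3.85%, interval 0.0973 to 19.6). Gnas, Cdkn2a, Xbp1, Oaz1, Polg, Atxn1 and Prnp had none. The rule takes only ORFs that lie wholly inside the main span. A known second frame that begins before the main start or runs past the main stop could not be counted here. One wholly inside the main span could be counted, but its absence can reflect low expression or shallow sequencing, and neither is given. These counts therefore do not show whether the known second frames were translated. Cdkn2a, the tumour suppressor gene known for a pair of frames in a common exon, had a single listed ORF of 168 codons (score 833). Xbp1, the unfolded protein response factor whose frame shifts on splicing, had a single ORF of 80 codons (score 852). In Polg, the mitochondrial DNA polymerase known in human for a long overlapping frame, a 243-codon ORF that scored 943 ran over the start of the 1217-codon main ORF (score 786), so it began upstream and was placed in another class.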

How the data were processed

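Ribosome footprints were sequenced from 37 libraries in 28 groups, per the labels' protocols. The submitters' processing notes name Bowtie2, TopHat and mm9 (no role or version stated). Which program called the ORFs is not given in the sources used here. In all, the authors deposited 1 ORF list with a score per ORF and no value per library; no line scored under 500, so lower-scoring ORFs were not analysed. Coordinates are mm9, counted from 1. ORFs that are absent, and those that score low, can reflect low expression or shallow sequencing; neither is given.

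The coding bases of each ORF were rebuilt from its exon blocks, and frame and distance were read at bases shared with the main ORF. The length in the name matched the coding bases for all 22367 ORFs. Of 10418 families, 9446 matched a symbol of RefSeq's GRCm38.p6 gene table, used for names and neighbouring genes only, 127 did so without a suffix, 659 by an older name and 186 not at all. Shares have exact Clopper-Pearson intervals at the 95% level. No test was run: ORFs and genes are not replicates.

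The members and the 15 gene lists were chosen with earlier results of these data known. Named were the 10 families with most ORFs (by stops), the 10 highest-scoring, longest, nearest to the main start and largest in score excess (main ORFs of 100 codons or more), up to 4 genes a list by score, and 9 genes in any case; the text leaves some out, and a few genes under this rule are not reported here. Further list genes and the long overlapping ORFs were added after their values were seen. Alternatives were 2 score minimums, 2 length minimums, 1 ORF per stop, other choices of main ORF, shared bases only, shared transcript only, high main scores, and 2 chosen after seeing the data. The placement was tested on simulated data, 3000 ORFs in 500 families: all 3000 were placed in their class and all 1500 out-of-frame ORFs got their frame and distance. Python 3.11.15, numpy 2.4.6, scipy 1.17.1 and matplotlib 3.10.9 were used. No sequence was used, so start codons are not given.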

Additional observations from a re-analysis of the deposited data

How the results depend on the processing

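No paired analysis was possible because the list has no value per library. Of 108 values under other settings, 61 moved by less than their interval or 1.5 times and 47 moved further. The score and length minimums were applied to all ORFs, main ORFs included, and main ORFs and out-of-frame ORFs were then assigned again among the families that remained. With a score of 900 or more, 66 out-of-frame ORFs were found in 0.929% of 6784 families, with a median score of 942, 28.8% above their main ORF, a median start at 9.76% of the main ORF and 50.8% of starts in its first 10%. With a score of at least the list's median, 847, there were 130 in 1.48% of 7969 families, 89.2% sharing coding bases, 79.3% in the +1 frame, 81.5% on a transcript with the main start and stop, with medians of 25 codons and 924.5, and 34.6% above their main ORF. With at least 10 codons, 6.41% of 10392 families had one, with a median of 33 codons, a median start at 9.76% and 50.6% in the first 10%. With at least 30 codons there were 490 in 3.92% of 10308 families, 78.6% in the +1 frame, a median of 50 codons, a median start at 8.07% and 55.7% in the first 10%. When each family's highest-scoring ORF was taken as main there were 818 in 6.08% of families, 94.6% sharing coding bases, medians of 19.5 codons and 654, 0% above the main ORF by construction, a median start at 13.6% and 41.7% in the first 10%. With main scores of at least 926 there were 543 in 7.82% of 5227 families, 95.4% sharing coding bases, medians of 19 codons and 675, 2.21% above the main ORF, a median start at 13.9% and 38.8% in the first 10%. Among ORFs sharing coding bases 82.3% lay on a transcript with the main start and stop, and with only such transcripts 7.06% of families had one and 97.2% shared coding bases. With the highest-scoring in-frame start of the main stop as the main start, chosen after seeing the data, 8.06% of families had one, 92.7% shared coding bases and 16.6% scored above it. Without the 10 families with most such ORFs, likewise chosen later, 93.2% shared coding bases. The filters on score and length remove ORFs by construction; the cause of the other shifts was not tested. The share that overlaps and the share on a shared transcript have no value where they are the filter.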
